A study of Homo sapiens with 12 samples.

Results

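The 10 genes described here encode MYC, its relative MYCL, their partner MAX and 7 further proteins of the MAX network: MXD1, MXD3, MXD4, MXI1, MNT, MGA and MLX. They were taken by gene symbol from the table of read counts, by a rule that names the genes and uses no threshold on their values, and all 10 were found among the 23459 genes of that table. RNA was sequenced from MCF10A, an immortalised, non-tumorigenic human mammary epithelial cell line carrying a doxycycline-inducible allele of YAP5SA, a hyperactive, Hippo-insensitive form of YAP, which activates transcription together with TEAD factors. These cells had been infected either with an empty vector or with a vector that expresses JUN, a subunit of the AP-1 transcription factor, and received doxycycline at 100 ng/ml (Dox) or its solvent ethanol (EtOH). This gave 4 groups of 3 libraries, named by vector and treatment: vector EtOH and JUN EtOH without induction, vector Dox and JUN Dox with it. Every group carried the inducible allele, and no library came from cells that received doxycycline without carrying it, so effects of the drug and of YAP5SA cannot be told apart here. Whether the cells were a single clone is not given in the sources used here.

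MYC and MYCL bind DNA as heterodimers with MAX at E-boxes, whose canonical letters are CACGTG, and mainly activate genes of growth, ribosome production and metabolism. MXD1, MXD3, MXD4, MXI1 and MNT compete with MYC for MAX and for the same sites, where they recruit the SIN3 and histone deacetylase corepressors. MGA joins MAX in a Polycomb-type repressor complex, and MLX pairs with some of the same repressors and with the glucose-responsive factors MondoA (gene MLXIP) and ChREBP (gene MLXIPL).

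The libraries held 18594867 to 28993487 counted reads each. Values below are CPM, the count scaled to library size after TMM normalisation, and changes are log2 fold changes ± standard error (SE) from edgeR's quasi-likelihood test over 14775 genes. A gene was called where the Benjamini-Hochberg adjusted p fell under 0.05. JUN itself was at 35.5 to 55.0 CPM in the uninduced and 186.5 to 194.4 CPM in the induced libraries with the empty vector, and at 1064 to 1399 CPM in all libraries with the JUN vector. The YAP1 gene, which need not capture all transgene reads, was not called in either induction (0.40 ± 0.16, edgeR adjusted p = 0.0819 in vector cells and 0.26 ± 0.16, edgeR adjusted p = 0.308 in JUN cells). All 8 genes listed as basal mammary epithelial markers were detected, of which CDH1 and EPCAM are not particular to basal cells. On induction 6 of the 8 were called lower in vector cells and 5 in JUN cells, and their summed level went from 8720-9340 to 4900-5900 CPM and from 9270-10700 to 5840-8330 CPM. The JUN vector moved them both ways, with 3 called higher and 2 lower without induction and 4 higher and 2 lower with it. Without induction mean KRT14 went from 209 to 481 CPM, mean ITGB4 from 758 to 449 CPM and mean EPCAM from 146 to 43.0 CPM. With induction mean KRT14 went from 66.7 to 280 CPM, mean CDH1 from 129 to 58.7 CPM and mean EPCAM from 163 to 42.5 CPM. Of the luminal markers, the JUN vector lowered 4 in uninduced and 3 in induced cells. Fibroblast markers summed to 5.05-32.9 CPM over all libraries and were led upward by LUM (3.09 and 2.55) and DCN (1.56 and 1.95) with the JUN vector, while COL1A2 had at most 3 counts in every library, and 3 were called lower on induction in vector cells and 2 in JUN cells. The leukocyte genes PTPRC, CD3E and LYZ had at most 3 counts in every library, but CD14, a receptor that epithelial cells can also make, had 29 to 639 counts and was called lower in all 4 pairwise comparisons (-2.34 and -1.86 on induction, -1.41 and -0.93 with the JUN vector). The part of these marker shifts in the changes of the members was not tested. In bulk RNA, fewer cells of a kind and less RNA per cell cannot be told apart.

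Induction of YAP5SA lowered the RNA of several MAX-binding repressors with no called change of MYC, whereas the JUN vector lowered MYC. In vector cells, MXD4, MNT and MXI1 fell and MLX rose. Of the 10 members, 1 was called higher and 3 lower, while 15.6% of all genes tested were called higher and 14.4% lower. In JUN cells, MXD4, MNT, MXI1 and MXD1 fell on induction and MLX rose, so that 1 member was called higher and 4 lower, against 11.2% and 10.3% of all genes. The JUN vector without induction lowered MYC and MXD3 and raised MXD1, which gave 1 member higher and 2 lower against 20.1% and 18.9% of all genes. With induction, the JUN vector lowered MYC and MXD3 and raised MXD4, again 1 higher and 2 lower, against 18.4% and 17.2% of all genes. The shares of members called with the JUN vector were near those of all genes. Both JUN comparisons share libraries with both induction comparisons, so they are not independent of each other.

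**Figure D1:**
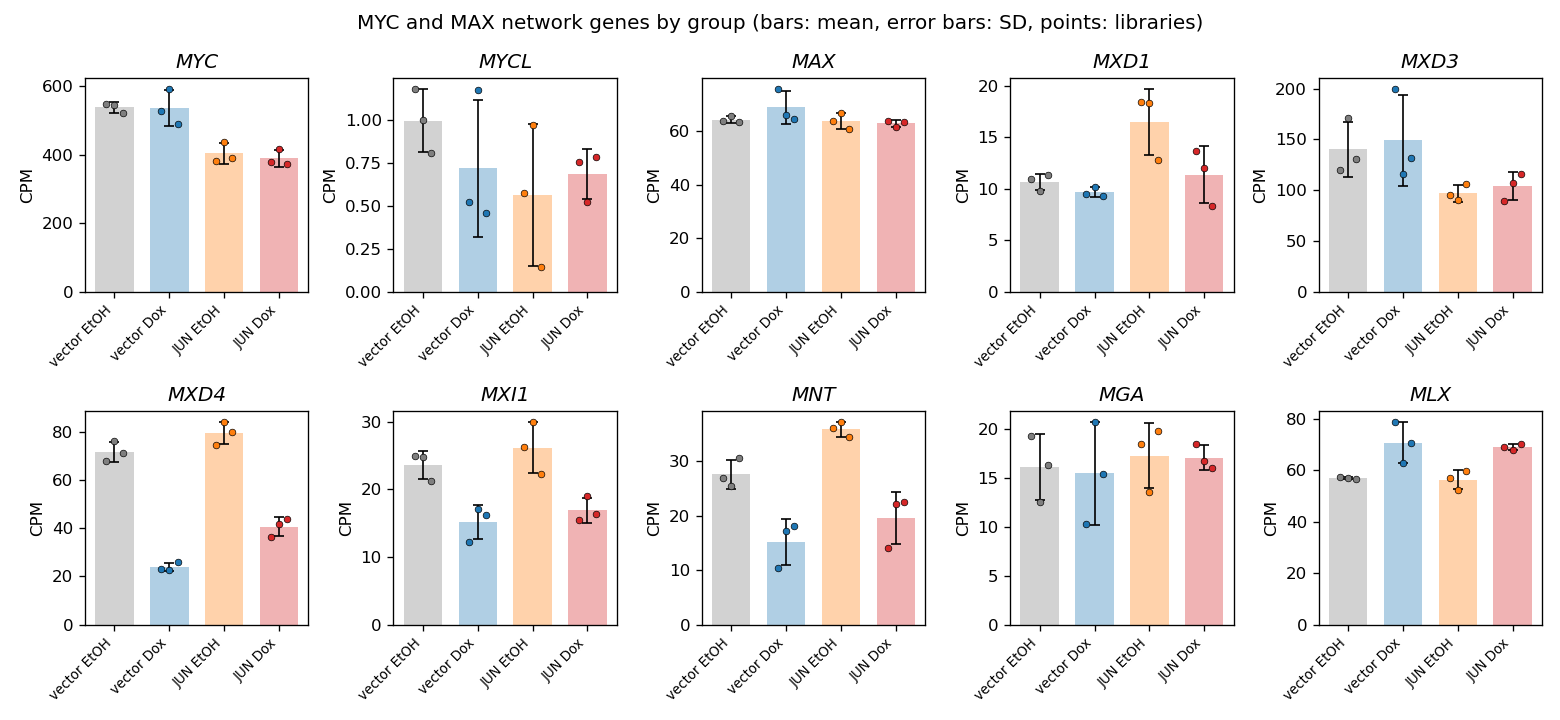
CPM of each of the 10 genes (vertical axes, each from 0) in the 4 groups (horizontal axis), with bars for the mean, error bars for the SD and points for the 3 libraries of a group. MXD4, MXI1 and MNT are lower in both Dox groups than in the matching EtOH groups, and MYC is lower in both JUN groups.

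MXD4, a member of the MXD repressor family (hg19 chr4:2249159-2263836, minus strand), had the largest change of the 10 genes. Its RNA was measured at 67.7, 76.1 and 71.1 CPM in vector EtOH and at 23.2, 22.6 and 25.8 CPM in vector Dox. With the JUN vector it was measured at 74.7, 84.0 and 80.0 CPM under EtOH and at 36.6, 41.6 and 44.02 CPM under Dox. Every Dox library lay below every EtOH library, and the JUN Dox libraries lay in between, above all of vector Dox. Induction changed MXD4 by a log2 fold of -1.59 ± 0.10 in vector cells (edgeR adjusted p = 3.42e-08), where the mean ± SD (n = 3) was 71.6 ± 4.21 CPM before and 23.8 ± 1.73 CPM after. In JUN cells the change was -0.97 ± 0.10 (edgeR adjusted p = 7.72e-06), with 79.6 ± 4.66 CPM before and 40.7 ± 3.80 CPM after. The JUN vector raised MXD4 in induced cells by 0.77 ± 0.10 (edgeR adjusted p = 4.04e-05), while in uninduced cells the EtOH groups overlapped and the difference was 0.15 ± 0.10 (edgeR adjusted p = 0.231).

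The test of the difference between both inductions, the interaction of JUN and YAP5SA, called MXD4 alone among the members. Its fall was 0.62 ± 0.14 smaller on the log2 scale with the JUN vector (edgeR adjusted p = 0.0484). This interaction called 0.291% of all genes tested higher and 0.826% lower, and the adjusted p of the other 9 members ran from 0.745 to 0.996. The MXD4 value stayed between 0.56 and 0.71 when each of the 12 libraries was left out in turn. Its adjusted p passed 0.05 in 10 of those fits, with the highest value, 0.161, without JUN EtOH replicate 1, and the call held without vector Dox replicate 1 (0.0462) or JUN Dox replicate 1 (0.0174).

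MNT, a widely expressed MAX-binding repressor (hg19 chr17:2287367-2304398, minus strand), also fell on induction. It was measured at 26.9, 25.4 and 30.6 CPM in vector EtOH and at 10.4, 17.3 and 18.1 CPM in vector Dox. Under the JUN vector it was at 36.2, 37.2 and 34.4 CPM with EtOH and at 14.0, 22.1 and 22.6 CPM with Dox. All EtOH libraries exceeded all Dox libraries, and replicate 1 was the lowest of both Dox groups. Induction changed it by -0.86 ± 0.19 with the empty vector (edgeR adjusted p = 0.00385) and by -0.87 ± 0.19 with the JUN vector (edgeR adjusted p = 0.00456), with an interaction of -0.01 ± 0.27 (edgeR adjusted p = 0.996). All 3 JUN EtOH libraries lay above all 3 of vector EtOH, yet the difference of 0.38 ± 0.19 was not called (edgeR adjusted p = 0.123), nor was that of 0.37 ± 0.20 in induced cells (edgeR adjusted p = 0.156). The first was called, at 0.38, when only the libraries of that comparison entered the fit (edgeR adjusted p = 0.0036) or without vector Dox replicate 1 (0.0384), and the second without JUN Dox replicate 1 (0.56, edgeR adjusted p = 0.0301). An antisense long non-coding gene that is not in the count table overlaps 12.2% of the exon bases of MNT.

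MXI1, which encodes another MXD-family repressor (hg19 chr10:111967363-112047123, plus strand), was the remaining gene lowered in both backgrounds. The vector EtOH libraries held 24.9, 24.8 and 21.2 CPM and the vector Dox libraries 12.2, 17.0 and 16.2 CPM. For the JUN vector these were 26.3, 29.96 and 22.29 CPM with EtOH and 15.4, 19.0 and 16.4 CPM with Dox. No Dox library reached the lowest EtOH library, while vector and JUN libraries of the same treatment overlapped. Induction changed it by -0.64 ± 0.14 in vector cells (edgeR adjusted p = 0.00385) and by -0.63 ± 0.14 in JUN cells (edgeR adjusted p = 0.00591), and the JUN vector did not change it detectably (0.15 ± 0.14 and 0.16 ± 0.15, edgeR adjusted p = 0.427 and 0.416). The induction calls of MXD4, MNT and MXI1 were kept under every alternative and every left-out library. Deviations of the libraries from their group means followed exon GC content to different degrees, with correlations across genes from -0.359 for JUN Dox replicate 1 to 0.364 for JUN Dox replicate 3, and exon GC was 59.7% for MNT, 60.1% for MXD4 and 42.7% for MXD1. With this correlation as a term in the fit, the same members were called in every comparison.

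MXD1, the founding MXD repressor (hg19 chr2:70124820-70170077, plus strand), was raised by the JUN vector without induction. Without induction it lay at 10.9, 9.78 and 11.3 CPM with the empty vector and at 18.4, 18.3 and 12.8 CPM with the JUN vector. The induced libraries held 9.46, 10.2 and 9.29 CPM with the empty vector and 13.7, 12.02 and 8.32 CPM with the JUN vector. JUN EtOH lay above vector EtOH in all libraries, but overlapped JUN Dox, since JUN EtOH replicate 3 lay below JUN Dox replicate 1. In both JUN groups replicate 3 was lower than the others. The JUN vector raised MXD1 by 0.63 ± 0.18 (edgeR adjusted p = 0.0112) without induction, a call lost without JUN EtOH replicate 1 (edgeR adjusted p = 0.0561) and without JUN EtOH replicate 2. In induced cells the difference was 0.23 ± 0.18 (edgeR adjusted p = 0.341). On induction MXD1 fell by 0.55 ± 0.17 in JUN cells (edgeR adjusted p = 0.0354), which became -0.36 without JUN Dox replicate 3 (edgeR adjusted p = 0.141), and was also lost without JUN EtOH replicate 1 or 2 or JUN Dox replicate 2. In vector cells the change was -0.15 ± 0.18 (edgeR adjusted p = 0.583), and the interaction was not called (-0.40 ± 0.25, edgeR adjusted p = 0.745).

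MXD3, the MXD gene linked to the S phase of the cell cycle (hg19 chr5:176728462-176739758, minus strand), cannot be read apart from its neighbours. Empty-vector libraries held 119, 171 and 131 CPM under EtOH and 200.1, 116 and 131 CPM under Dox. The JUN-vector libraries held 95.2, 89.9 and 106 CPM under EtOH and 89.0, 107 and 116 CPM under Dox. JUN EtOH lay below vector EtOH in all libraries, and the JUN Dox libraries lay below those of vector Dox by a margin that vanishes on rounding. Differences for the JUN vector were -0.53 ± 0.18 without induction (edgeR adjusted p = 0.0313) and -0.52 ± 0.18 with it (edgeR adjusted p = 0.037). PRELID1, on the opposite strand, covers 24.2% of the exon bases of MXD3, and use of strand in the counting is not stated. RAB24, on the same strand as MXD3, shares 19.5% of these bases, an overlap that use of strand would not resolve. RAB24 had 96 to 193 counts per library and was not called in any comparison. PRELID1 fell by 0.60 ± 0.17 and by 0.54 ± 0.17 in the same comparisons (edgeR adjusted p = 0.0123 and 0.0232), and MXD3 counts were 31.4% to 37.9% of PRELID1 counts in every library. How far shared reads set the MXD3 values was not tested. The first MXD3 call was lost without vector EtOH replicate 2 (-0.37, edgeR adjusted p = 0.16) or 3 or JUN EtOH replicate 1 or 2. The second was lost without replicate 1 of vector Dox (-0.24, edgeR adjusted p = 0.223), replicate 3 of vector EtOH or either of JUN Dox replicates 1 and 2. Induction did not change MXD3 detectably (0.09 ± 0.18 and 0.10 ± 0.18, edgeR adjusted p = 0.756 and 0.758).

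**Figure D2:**
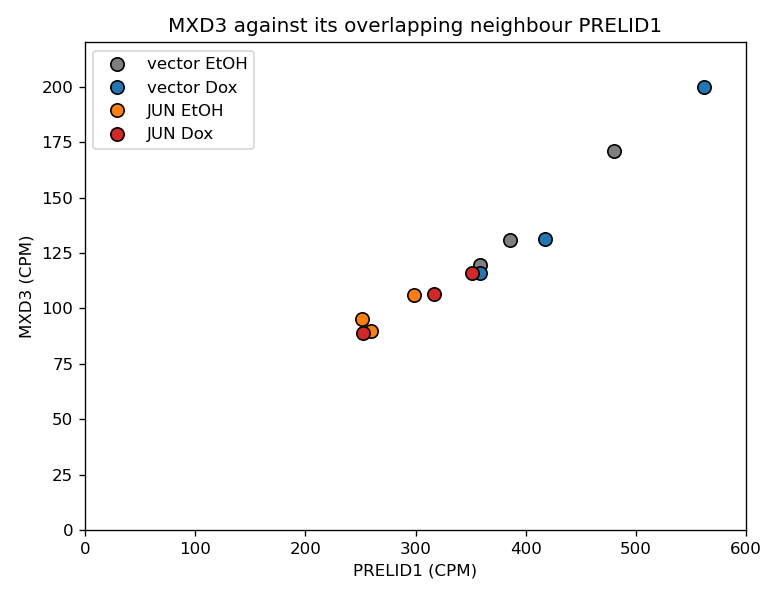
CPM of MXD3 (vertical axis) against CPM of its overlapping neighbour PRELID1 (horizontal axis), 1 point per library coloured by group. MXD3 counts were 31.4% to 37.9% of PRELID1 counts in all 12 libraries, and the vector libraries extend to the highest values of both genes.

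MYC, on chromosome 8, was lower with the JUN vector and had no called change on induction. Vector EtOH gave 547, 546 and 520 CPM and vector Dox 527, 593 and 489 CPM, whereas JUN EtOH gave 381, 438 and 391 CPM and JUN Dox 379, 417 and 372 CPM. All 6 libraries with the JUN vector lay below all 6 with the empty vector, and within each vector the EtOH and Dox libraries overlapped. The JUN vector changed MYC by -0.41 ± 0.11 without induction (edgeR adjusted p = 0.00707) and by -0.46 ± 0.11 with it (edgeR adjusted p = 0.00382). In means ± SD (n = 3) these were 537.7 ± 14.9 against 403.5 ± 30.3 CPM and 536.3 ± 52.6 against 389.2 ± 24.3 CPM. Both calls held under every alternative and every left-out library, with edgeR or DESeq2 adjusted p between 2.25e-05 and 0.0427. On induction it differed by -0.004 ± 0.11 with the empty vector (edgeR adjusted p = 0.984) and by -0.05 ± 0.11 with the JUN vector (edgeR adjusted p = 0.787).

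MYCL, the MYC relative first found amplified in lung cancer, was close to the detection limit, with 3 to 31 counts per library and 0.141 to 1.18 CPM. The groups overlapped in each of the 4 pairwise comparisons, its standard errors there were 0.48 to 0.52, and no difference was called. Another MYC gene, MYCN, had no count in any library. MAX, the shared partner (hg19 chr14:65472892-65569413, minus strand), had no called difference. Its level was 63.7, 65.9 and 63.5 CPM in vector EtOH and 63.8, 66.8 and 60.9 CPM in JUN EtOH. After induction it was 75.96, 66.1 and 64.7 CPM with the empty vector and 63.7, 61.6 and 63.6 CPM with the JUN vector. Only vector Dox replicate 1 stood above 70 CPM, with pairwise log2 fold changes from -0.13 to 0.10, edgeR adjusted p 0.262 to 0.93. Opposite-strand genes FNTB and CHURC1-FNTB share 13.1% and 9.96% of its exon bases, and neither was called.

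MLX (hg19 chr17:40719090-40725257, plus strand) was measured at 57.4, 56.9 and 56.4 CPM in vector EtOH and at 78.8, 62.7 and 70.5 CPM in vector Dox. The JUN vector gave 56.8, 52.4 and 59.6 CPM with EtOH and 69.1, 67.7 and 70.1 CPM with Dox. All Dox libraries lay above all EtOH libraries. Induction raised MLX by 0.31 ± 0.10 in vector cells (edgeR adjusted p = 0.0223) and by 0.29 ± 0.10 in JUN cells (edgeR adjusted p = 0.039), and the JUN vector did not change it detectably (-0.02 ± 0.10 and -0.03 ± 0.10, edgeR adjusted p = 0.904 and 0.802). These calls were not firm, since the first was lost in 5 and the second in 10 of the 12 fits that left out 1 library. The first was lost without any 1 of the 3 vector EtOH libraries or vector Dox replicate 1 or 3, and the second held only without vector Dox replicate 1 or 2. PSMC3IP, antisense to 18.2% of the exon bases of MLX, rose on induction by 0.57 ± 0.12 and 0.55 ± 0.12 (edgeR adjusted p = 0.00304 and 0.00555). The mean of MLX rose by 13.8 and 12.7 CPM and that of PSMC3IP by 10.7 and 10.2 CPM, and the part of shared reads in this was not tested.

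MGA, the largest protein of the network, showed no called difference. It ranged from 12.6 to 19.3 CPM in vector EtOH and from 13.6 to 19.8 CPM in JUN EtOH. After induction the ranges were 10.3 to 20.8 CPM for the empty vector and 16.02 to 18.5 CPM for the JUN vector. The groups overlapped throughout, and its coefficient of variation reached 33.8% in vector Dox. The standard errors of its pairwise differences were 0.22, against 0.10 for MLX, so a change as small as that of MLX was not detectable at this spread.

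**Figure D3:**
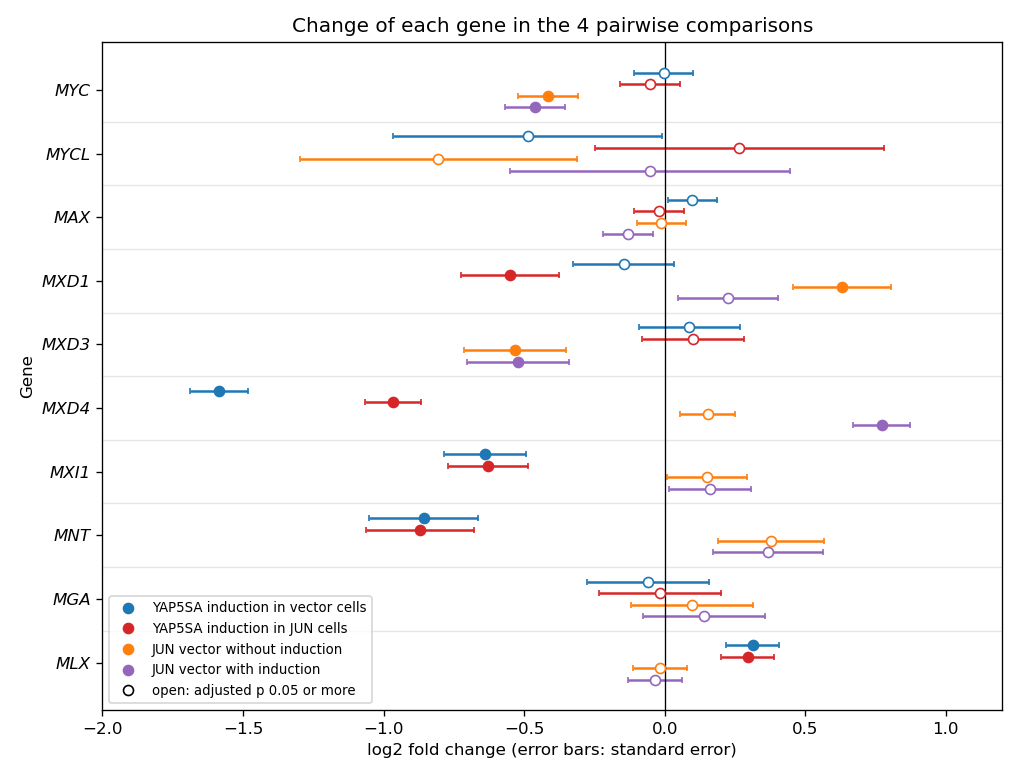
Log2 fold change (horizontal axis, error bars SE) of each of the 10 genes (vertical axis) in 4 pairwise comparisons distinguished by colour, with filled points for edgeR adjusted p under 0.05. The MXD4 induction stands at -1.59 in vector cells and at -0.97 in JUN cells, and both MYC points of the JUN vector lie below 0 while both induction points lie at 0.

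Levels of different genes were compared per kilobase (kb) of annotated exon. MYC was the most abundant member, with a mean of 76.4 CPM per kb over the 12 libraries, followed by MXD3 at 25.9, MLX at 14.9, MAX at 10.4 and MXD4 at 7.85 CPM per kb. MXI1, MNT, MXD1, MGA and MYCL lay at 3.47, 2.83, 1.90, 0.821 and 0.149 CPM per kb. These levels assume that all annotated exons are used and that no reads are shared with overlapping genes. Reads may be shared for MXD3, MLX and MAX, so the ranks of these 3 are uncertain. In vector Dox the MXD4 level was 3.47 CPM per kb, against 10.4 in vector EtOH and 11.6 in JUN EtOH.

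The level of MYC was set beside the summed level of MXD1, MXD4, MXI1 and MNT per kb as a description. With the empty vector this ratio was 4.43 to 4.74 under EtOH and 7.97 to 10.6 under Dox. With the JUN vector it was 2.79 to 2.99 under EtOH and 4.65 to 5.30 under Dox. JUN EtOH was lowest and vector Dox highest, while vector EtOH and JUN Dox overlapped. Between vector EtOH and vector Dox the repressor sums did not overlap while the MYC levels did, and between the EtOH groups neither overlapped. With MXD3, whose counts are uncertain, added to the sum, the ratios were 1.60 to 2.03, 1.71 to 2.83, 1.46 to 1.65 and 1.62 to 2.04 in the same order, and only vector Dox and JUN EtOH stayed apart. RNA levels say nothing of the amounts of the proteins.

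**Figure D4:**
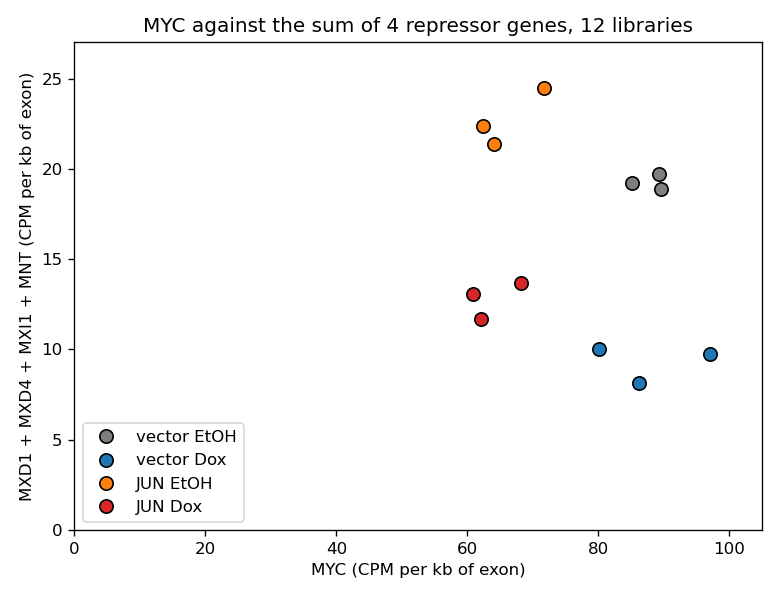
Summed level of MXD1, MXD4, MXI1 and MNT (vertical axis, CPM per kb of exon) against the level of MYC (horizontal axis, CPM per kb of exon), with 1 point per library coloured by group. The 4 groups stand apart, with the JUN groups to the left at 60.9 to 71.7 CPM per kb of MYC and the Dox groups in the lower part.

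The promoters of the members other than MYC were searched for the letters of 3 motifs. These were chosen because the network binds E-boxes, JUN binds AP-1 sites and YAP acts through TEAD factors. RefSeq windows of 250 bases before to 50 bases after annotated start sites (GRCh38.p14) were given for 9 members, in 14 windows. No window was given for MYC, so nothing can be said of motifs in its promoter. CACGTG, which reads the same on both strands, was found in 3 of the 14 windows, those of MXD4, MNT and MLX. It was in 7.26% of all 35116 windows. MXD4 and MNT fell and MLX rose on induction, and their windows are shown with CACGTG in capitals. The coordinates are chr4:2262060-2262359 on the minus strand for MXD4, chr17:2401011-2401310 on the minus strand for MNT and chr17:42566850-42567149 on the plus strand for MLX, and the first C lies at -238, -193 and -50 from the start site.
MXD4: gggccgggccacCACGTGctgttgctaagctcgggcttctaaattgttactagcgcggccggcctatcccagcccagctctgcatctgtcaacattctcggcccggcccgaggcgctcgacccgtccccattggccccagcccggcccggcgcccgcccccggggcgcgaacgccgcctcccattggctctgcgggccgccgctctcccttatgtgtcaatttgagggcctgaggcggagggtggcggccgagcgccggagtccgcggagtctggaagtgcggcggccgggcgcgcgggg
MNT: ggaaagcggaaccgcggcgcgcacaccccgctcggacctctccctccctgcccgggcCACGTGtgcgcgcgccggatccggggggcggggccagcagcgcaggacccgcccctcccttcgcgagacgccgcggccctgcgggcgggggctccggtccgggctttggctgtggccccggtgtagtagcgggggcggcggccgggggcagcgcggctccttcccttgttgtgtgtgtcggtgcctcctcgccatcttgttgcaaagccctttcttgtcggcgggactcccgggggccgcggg
MLX: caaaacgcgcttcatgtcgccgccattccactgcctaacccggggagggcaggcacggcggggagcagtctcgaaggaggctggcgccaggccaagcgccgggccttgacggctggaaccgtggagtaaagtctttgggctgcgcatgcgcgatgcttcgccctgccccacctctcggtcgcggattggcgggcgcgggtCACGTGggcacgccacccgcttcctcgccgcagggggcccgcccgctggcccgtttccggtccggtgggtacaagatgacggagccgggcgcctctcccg
The AP-1 letters TGANTCA, searched on both strands, were in the window of MXD3 only and in 7.71% of all windows. The TEAD letters GGAATG, searched on both strands, were in 1 window each of MXI1, MGA and MLX and in 14.0% of all windows. A match of letters is no evidence of binding, and binding was not measured in these libraries.

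Among 30 genes that MYC is known to activate, most moved, and in opposite directions for induction and for the JUN vector. On induction in vector cells 18 were called higher and 0 lower, against 15.6% and 14.4% of all genes tested. The median log2 fold change of the 30 was 0.43, against 0.01 over all genes. The largest rises were those of CCND2, a D-type cyclin (2.11 ± 0.16, edgeR adjusted p = 1.83e-07), and of the ribosome assembly genes MRTO4 (0.83 ± 0.16), NOP16 (0.68 ± 0.13) and RRS1 (0.65 ± 0.09). In JUN cells 17 were called higher and 1, the polyamine synthesis gene ODC1 (-0.34 ± 0.11), lower on induction, against 11.2% and 10.3% of all genes. The median of the 30 was 0.39. There CCND2 rose by 0.86 ± 0.15, and MRTO4, RRS1 and PPAN, again ribosome assembly genes, rose by 0.67 ± 0.16, 0.66 ± 0.09 and 0.65 ± 0.13. With the JUN vector and no induction 1 was called higher and 18 lower, against 20.1% and 18.9% of all genes. The median of the 30 was -0.47, against 0.00 over all genes. CCND2 was the 1 that rose (0.87 ± 0.16), and BOP1, for ribosome assembly, the mitochondrial chaperone HSPD1 and prothymosin alpha (PTMA) fell by 0.84 ± 0.17, 0.75 ± 0.12 and 0.74 ± 0.14. With induction the JUN vector gave 0 higher and 21 lower, against 18.4% and 17.2% of all genes, with a median of -0.40 for the 30. The largest falls were those of MRTO4 (-0.85 ± 0.16), the nucleotide kinase NME1 (-0.80 ± 0.17), NOP16 (-0.76 ± 0.13) and PTMA (-0.67 ± 0.14). Of the 30, only CCND2 differed in its induction between JUN and vector cells (-1.25 ± 0.22, edgeR adjusted p = 0.00967). MYC RNA itself had no called change in the comparisons where 18 and 17 of these genes rose, and it was lower in those where 18 and 21 fell. The part of MYC in the changes of the 30 genes was not tested.

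**Figure D5:**
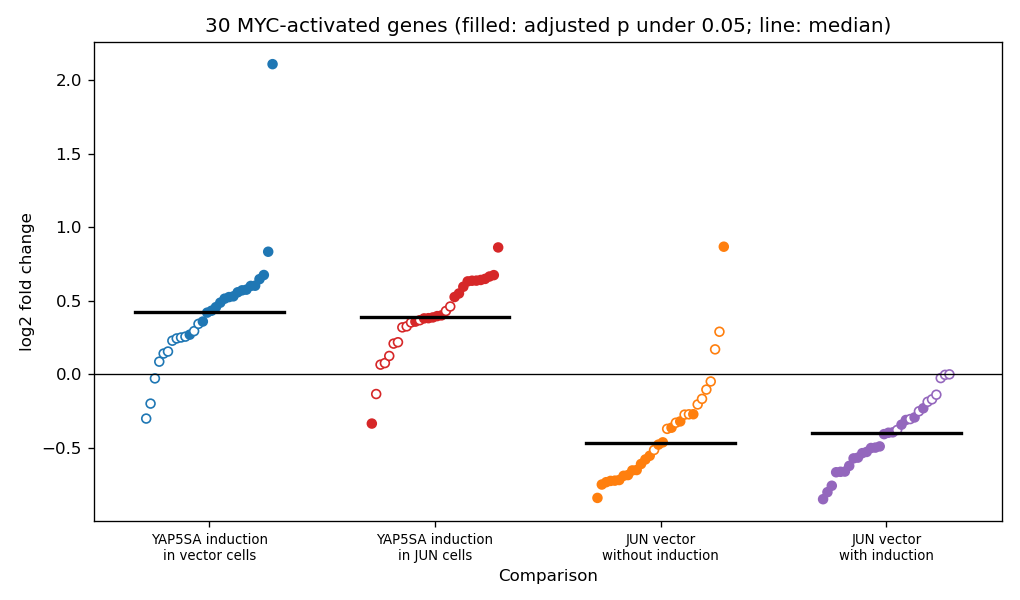
Log2 fold change (vertical axis) of each of 30 MYC-activated genes in 4 pairwise comparisons (horizontal axis, genes ordered by value within each), with filled points for edgeR adjusted p under 0.05 and a line at the median. The medians are 0.43 and 0.39 for induction and -0.47 and -0.40 for the JUN vector, and the highest point of the first comparison is CCND2 at 2.11.

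Genes that MYC is known to repress gave no single direction. Of 8 listed, 7 were tested, and 5 were called higher and 2 lower on induction in vector cells, 3 higher and 2 lower on induction in JUN cells. The JUN vector gave 3 higher and 2 lower without induction and 1 higher and 4 lower with it. Of all genes tested, 15.6% were called higher and 14.4% lower on induction in vector cells, and 11.2% and 10.3% in JUN cells. With the JUN vector these shares were 20.1% and 18.9% without induction and 18.4% and 17.2% with it. On induction in vector cells the largest changes were rises of THBS1, an extracellular matrix glycoprotein gene (3.63 ± 0.16), of the DNA damage response gene GADD45A (1.31 ± 0.25), and of NDRG1 (0.77 ± 0.14) and NDRG2 (0.75 ± 0.17). With the JUN vector NDRG2 rose (2.35 ± 0.16 without and 2.27 ± 0.15 with induction), while THBS1 (-1.99 ± 0.15 and -3.735 ± 0.16) and CLU, which encodes the chaperone clusterin (-1.58 ± 0.13 and -1.46 ± 0.13), fell. The study also places THBS1 in a set of YAP target genes and reports that JUN lowered its mRNA. The part of MYC in the THBS1 changes was not tested. NDRG1 was higher with the JUN vector without induction (1.36 ± 0.14) and lower with it (-1.34 ± 0.14). The cell cycle inhibitor CDKN1B (p27) fell on both inductions (-0.27 ± 0.08 and -0.28 ± 0.08, edgeR adjusted p = 0.0223 and 0.0216). CDKN1A (p21) rose on induction in vector cells (0.36 ± 0.10, edgeR adjusted p = 0.0159) and was lower with the JUN vector in induced cells (-0.71 ± 0.10, edgeR adjusted p = 9.41e-05).

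Proteins that control the turnover of MYC were represented by 10 genes. On induction 5 were called higher and 0 lower in vector cells, and 5 higher and 0 lower in JUN cells. Of all genes tested, 15.6% were called higher and 14.4% lower in vector cells, and 11.2% and 10.3% in JUN cells. Median log2 fold changes of the 10 were 0.36 and 0.31, against 0.01 and 0.00 over all genes. In vector cells the largest rise was that of SKP2, an F-box subunit of a ubiquitin ligase that acts on MYC and on p27. SKP2 went from 56.1 ± 0.94 to 142 ± 1.99 CPM with the empty vector and from 39.4 ± 0.66 to 57.7 ± 6.22 CPM with the JUN vector (SD, n = 3). These rises were 1.34 ± 0.09 and 0.55 ± 0.09 on the log2 scale, and their difference of -0.79 ± 0.13 was called (edgeR adjusted p = 0.00479). For the JUN vector SKP2 differed by -0.51 ± 0.09 without induction and by -1.30 ± 0.09 with it. The mitotic kinase gene AURKA, whose product shields MYCN from degradation, rose by 0.67 ± 0.09 and 0.60 ± 0.09 on induction, the deubiquitinase gene USP36 by 0.49 ± 0.11 and 0.63 ± 0.11, and CIP2A, an inhibitor of the phosphatase PP2A, by 0.46 ± 0.12 and 0.42 ± 0.12. FBXW7, a ubiquitin ligase subunit that marks MYC for degradation, was called higher in vector cells (0.46 ± 0.15, edgeR adjusted p = 0.0349), and the mitotic kinase gene PLK1 in JUN cells (0.46 ± 0.11, edgeR adjusted p = 0.00972). For the JUN vector 1 was called higher and 2 lower without induction, and 0 higher and 2 lower with it. The shares of all genes were 20.1% higher and 18.9% lower without induction, and 18.4% and 17.2% with it.

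Of 12 cofactors of MYC and of the MXD proteins, 2 were called higher and 2 lower on induction in vector cells, shares near the 15.6% and 14.4% of all genes tested, and 3 higher and 0 lower in JUN cells, against 11.2% and 10.3%. The histone deacetylase gene HDAC2 rose in both (0.33 ± 0.08 and 0.40 ± 0.08), as did WDR5, which helps MYC bind chromatin (0.45 ± 0.10 and 0.28 ± 0.10). In vector cells the corepressor gene SIN3A (-0.47 ± 0.15, edgeR adjusted p = 0.0254) and another histone deacetylase gene, HDAC1 (-0.26 ± 0.08, edgeR adjusted p = 0.0197), fell. In JUN cells the MYC coactivator gene KAT2A rose (0.37 ± 0.10, edgeR adjusted p = 0.0128). The JUN vector gave 1 higher and 4 lower without induction and 1 higher and 3 lower with it, against 20.1% and 18.9%, and 18.4% and 17.2%, of all genes. Median log2 fold changes of the cofactors in these comparisons, in the same order, were 0.07, 0.15, -0.05 and -0.04, against 0.01, 0.00, 0.00 and 0.00 over all genes. With the JUN vector the corepressor gene SIN3B rose (0.37 ± 0.11 without and 0.45 ± 0.11 with induction). The MYC coactivator genes RUVBL2 (-0.87 ± 0.15 and -0.71 ± 0.14) and KAT2A (-0.76 ± 0.10 and -0.43 ± 0.10) fell, as did WDR5 (-0.29 ± 0.10 and -0.45 ± 0.10). Of 7 partners of MGA in its repressor complex, 2 were called higher on each induction, E2F6 (0.36 ± 0.11 in both) and TFDP1 (0.42 ± 0.09 and 0.39 ± 0.09). The JUN vector gave 1 partner higher and 2 lower in each state, with TFDP1 lower in both (-0.39 ± 0.09 and -0.42 ± 0.09). Of all genes, 15.6% and 11.2% were called higher on the inductions in vector and JUN cells. With the JUN vector 20.1% were called higher and 18.9% lower without induction, and 18.4% and 17.2% with it.

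Partners of MLX were few. MLXIP (MondoA) was measured at 41.5 to 85.4 CPM over all libraries and was not called, and MLXIPL (ChREBP) had 0 to 8 counts per library. Both listed targets of MondoA and MLX were tested and moved apart. TXNIP, an inhibitor of glucose uptake, fell on induction from 113 ± 20.1 to 33.01 ± 6.44 CPM in vector cells (-1.78 ± 0.23, edgeR adjusted p = 3.75e-05) and from 175.5 ± 42.6 to 67.4 ± 21.2 CPM in JUN cells (-1.38 ± 0.22, edgeR adjusted p = 0.000477; SD, n = 3). The JUN vector raised TXNIP by 0.63 ± 0.22 without induction, where the groups overlapped (edgeR adjusted p = 0.0336), and by 1.03 ± 0.23 with it (edgeR adjusted p = 0.00289). ARRDC4, a relative of TXNIP, rose on induction in vector cells (0.90 ± 0.17, edgeR adjusted p = 0.00101) and was not called in the other comparisons.

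The genes whose log2 CPM followed that of MYC most closely were sought over the 12 libraries among 11366 genes of at least 5 CPM on average. Pearson's r was 0.966 for SORT1, 0.961 for BTG2, 0.958 for TCFL5, 0.958 for HOXA10-AS and 0.955 for GDF15. All 5 were lower with the JUN vector in both states, with log2 fold changes of -2.63 and -2.62 for GDF15 and of -0.31 and -0.35 for TCFL5. For MXD4 the 5 were PNRC1 (0.989), MED24 (0.987), SDCBP2 (0.985), STING1 (0.983) and ZER1 (0.983). All 5 fell on both inductions, from -3.39 and -2.36 for PNRC1 to -1.32 and -0.62 for ZER1. The 12 points share group means, so these values describe group patterns and carry no test. By Spearman's rho 1 of the 5 genes most like MYC, TCFL5, remained among the first 5, and 0 of those most like MXD4.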

How the data were processed

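RNA of 12 MCF10A libraries (4 groups of 3, grouped by their titles, described in the study's methods as biological replicates) was sequenced as single-end poly(A) reads. The deposited values are raw read counts per gene. Per the labels and methods, the authors trimmed reads with Cutadapt 4.2, aligned them to hg19 with Bowtie2 (per the labels 2.3.5.1), which does not split reads over introns, and counted overlaps in R. The annotation and the use of strand are not given in the sources used here, so reads of overlapping genes may be shared. In 23 of 47 well-expressed genes nested in an intron, the host gene had fewer counts than the nested gene. Unstranded counting over whole gene spans would not give this. The strands of host and nested gene were not compared, so stranded counting over whole spans cannot be judged from it.

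Gene IDs were matched to symbols for 99.4% of 23459 genes. Genes passing edgeR's filterByExpr (minimum count 10, minimum total 15) were tested: 14775, all 10 members included. CPM used TMM factors. All 12 libraries entered 1 quasi-likelihood fit (edgeR 4.0.16, R 4.3.3; 8 residual degrees of freedom; common biological coefficient of variation 12.5%), with 4 pairwise contrasts and the interaction, and Benjamini-Hochberg adjustment over all genes. The test was tested on simulated data with known changes. Alternatives were DESeq2 1.42.0, RLE and upper-quartile factors, no filter, the libraries of a comparison alone, a replicate block, a GC term, both together, and each library left out.

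The members and gene lists were chosen with earlier results of these data known. Named were all members, JUN and YAP1, overlapping genes, up to 4 called genes of largest change per list and comparison, and the 5 genes most like MYC and MXD4. CDKN1A, CDKN1B and the second CIP2A value were picked after their values were seen. Exon lengths came from GENCODE lifted to hg19, promoters from RefSeq. A gene at 3 or fewer counts was taken as at the detection floor, which covers counting error only.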

Additional observations from a re-analysis of the deposited data

Results flagged for a closer look

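The induction by YAP5SA differed between JUN and vector cells, by edgeR's interaction test, for 1 member and 6 other named genes outside the marker lists. Of the 8 basal markers, this test called 0 higher and 1 lower. Mean CDH1 went from 129.4 to 129.2 CPM on induction in vector cells and from 120.2 to 58.7 CPM in JUN cells. For MXD4 the log2 induction was 0.62 higher, that is less negative, with the JUN vector (edgeR adjusted p = 0.0484), a call that most fits leaving out 1 library did not keep. JUN itself gave -2.03, with a rise in vector cells and no called change in JUN cells. Mean JUN went from 47.6 to 190 CPM in vector cells and from 1279 to 1248 CPM in JUN cells. Reads from the JUN vector may count toward this gene, so induction of the cells' own JUN cannot be read in JUN cells. PNRC1, chosen for its likeness to MXD4 in these libraries, gave 1.04, with the smaller fall in JUN cells. SKP2 gave -0.79 and CCND2 -1.25, both with a smaller rise in JUN cells. NDRG1 gave -2.70, with a rise in vector cells and a fall in JUN cells, and THBS1 gave -1.75.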

How the results depend on the processing

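Of the 16 calls of members in the 5 comparisons, 9 held under every alternative: those of MYC with the JUN vector, of MXD4, MNT and MXI1 on both inductions and of MXD4 with the JUN vector in induced cells. The other 7 concern MLX, MXD1, MXD3 and the MXD4 interaction. Without the libraries of the other groups, MLX in vector cells (0.29, adjusted p = 0.0706), MXD1 in JUN cells (-0.56, adjusted p = 0.0813) and MXD3 in induced cells (-0.51, adjusted p = 0.0823) were not called by edgeR. MLX in JUN cells was not called by edgeR with upper-quartile factors (0.27, adjusted p = 0.0517) or no filter (0.29, adjusted p = 0.0708), and the edgeR adjusted p of the MXD4 interaction ran from 0.014 to 0.161 with DESeq2 at 0.00307.

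Same-numbered libraries deviated together by correlations of -0.258 to 0.466, with 7 of 18 over 0.1, so the numbers were not taken as pairs. With the replicate block the MXD3 difference in induced cells was not called (-0.52, edgeR adjusted p = 0.0574). Uncalled values that changed sign were MYCL with the JUN vector in induced cells (0.0334 with the replicate block, 0.0395 with the block and GC term), MGA on induction in JUN cells (0.0019 with both), and in the interaction MXD3 (-0.0184 with the GC term, -0.0043 with both), MNT (0.0064) and MLX (0.0055 with upper-quartile factors). The cause was not tested.

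The number of all genes called was 5267 for the JUN vector in induced cells and 3439 with its own libraries alone, and 165 for the interaction against 358 with DESeq2, 272 with the GC term and 261 with the block and GC term. With 1 library left out, genes called ran from 3326 to 4865 and members from 3 to 4 for induction in vector cells. They ran from 3823 (without JUN EtOH replicate 1) to 6765 and from 1 to 4 for the JUN vector without induction. For induction in JUN cells they ran from 2082 (without JUN EtOH replicate 2) to 3861 and from 3 to 5, for the JUN vector in induced cells from 4025 to 5539 and from 2 to 3, and for the interaction from 97 (without vector EtOH replicate 3) to 242 and from 0 to 1.

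Uncalled members whose sign changed when 1 library was left out had these ranges. On induction in vector cells MYC ran from -0.0898 to 0.0593, MXD3 from -0.19 to 0.24 and MGA from -0.34 to 0.15. On induction in JUN cells MYC ran from -0.10 to 0.011, MYCL from -0.17 to 0.92, MAX from -0.0528 to 0.0142 and MGA from -0.17 to 0.0938. With the JUN vector MAX ran from -0.0455 to 0.0219, MGA from -0.0485 to 0.25 and MLX from -0.0595 to 0.0324 without induction, and MYCL from -0.30 to 0.49, MGA from -0.0748 to 0.42 and MLX from -0.10 to 0.0594 with it. In the interaction MYC ran from -0.11 to 0.0355, MXD3 from -0.15 to 0.29, MXI1 from -0.12 to 0.12, MNT from -0.22 to 0.19, MGA from -0.17 to 0.32 and MLX from -0.0911 to 0.0734. Depth limits MYCL, at 3 to 31 counts per library.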
